A study of Homo sapiens with 24 samples.

Results

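The 6 genes GAD1, GAD2, PTPRN, PTPRN2, SLC30A8 and ICA1 encode proteins that are targets of islet autoantibodies in type 1 diabetes. They were chosen for that property and not for any value measured here, but with earlier results of these data known. For each gene, the H3K4me3 regions reaching within 2 kb of any start site annotated for a protein-coding gene were collected, and the region with the highest mean was taken as its main region. All 6 genes had such a region, as did 15085 of 20020 protein-coding genes (75.3%). The regions were mapped in EndoC-βH3 cells, an established human beta cell line made from fetal pancreas and immortalised with hTERT and SV40 Large T-antigen, with a tamoxifen-inducible Cre (CreER). The study compared 4 non-senescent samples (control) with 4 senescent samples, in which 4-hydroxytamoxifen over 3 weeks had excised the immortalising transgenes. Each H3K4me3 sample held 500000 cells of this single line, whose genotype is given as WT in the labels of both groups. The 16 samples of H3K27me3 and H3K9me3 were not analysed here.

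The value of a region is the authors' mean, over samples of both states, of the DESeq2-normalized read count. It has no spread and cannot be split by state, so every comparison below is a description of levels, with no test, and no change with senescence is given. Wide regions gather more reads, and genes are therefore compared per kb of region width. The table held 97545 regions with a median mean of 4.40, and nothing in it gives the depth of a sample. Across the 15085 main regions the median mean normalized count was 49.2 (quartiles 21.3 to 88.6), and the median per kb was 19.0 (quartiles 12.3 to 26.8).

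H3K4me3 is a histone mark of the nucleosomes that flank active start sites, and it is widest at genes of cell identity in many tissues. In type 1 diabetes, autoantibodies to a small set of beta cell proteins appear before the loss of insulin secretion and are used to recognise the disease. Most of these proteins belong to the secretory or synaptic-like vesicles of the beta cell. Glutamate decarboxylase makes the transmitter GABA, the PTPRN pair spans the membrane of dense-core granules, the SLC30A8 transporter brings zinc into insulin granules, and ICA1 acts in vesicle traffic at the Golgi.

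The promoters of 4 of these genes are printed. Those of GAD1 and GAD2 show starts inside an H3K4me3 region. The ICA1 promoter and the canonical PTPRN promoter show starts between 2 regions. The second PTPRN promoter belongs to a start inside the main region of PTPRN. Each is the run of 250 bases before a RefSeq start site (GRCh38.p14), written 5′ to 3′ on the strand of the gene, with CpG dinucleotides in capitals. The GAD1 promoter is chr2:170816637-170816886 (+), and those of GAD2 are chr10:26216122-26216371 (+) and chr10:26216524-26216773 (+). The PTPRN promoters are chr2:219309402-219309651 (−), at the canonical start, and chr2:219308971-219309220 (−), at a start farther downstream. The ICA1 promoter is chr7:8262168-8262417 (−).
GAD1: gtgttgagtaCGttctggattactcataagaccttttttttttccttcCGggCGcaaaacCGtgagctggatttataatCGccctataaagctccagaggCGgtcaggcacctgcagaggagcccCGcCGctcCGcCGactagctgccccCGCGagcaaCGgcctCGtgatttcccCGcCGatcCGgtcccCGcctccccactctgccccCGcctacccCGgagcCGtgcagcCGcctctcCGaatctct
GAD2 upstream: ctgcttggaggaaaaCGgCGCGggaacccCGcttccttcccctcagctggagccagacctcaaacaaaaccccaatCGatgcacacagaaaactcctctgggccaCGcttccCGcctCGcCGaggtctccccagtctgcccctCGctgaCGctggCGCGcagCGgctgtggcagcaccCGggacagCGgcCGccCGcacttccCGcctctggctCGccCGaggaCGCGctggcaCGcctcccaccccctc
GAD2 canonical: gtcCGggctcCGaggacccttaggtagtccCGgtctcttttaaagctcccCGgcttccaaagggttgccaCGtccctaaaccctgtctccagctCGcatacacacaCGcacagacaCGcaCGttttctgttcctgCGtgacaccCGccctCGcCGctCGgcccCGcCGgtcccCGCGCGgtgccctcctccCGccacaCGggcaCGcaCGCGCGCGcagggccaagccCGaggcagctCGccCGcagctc
PTPRN canonical: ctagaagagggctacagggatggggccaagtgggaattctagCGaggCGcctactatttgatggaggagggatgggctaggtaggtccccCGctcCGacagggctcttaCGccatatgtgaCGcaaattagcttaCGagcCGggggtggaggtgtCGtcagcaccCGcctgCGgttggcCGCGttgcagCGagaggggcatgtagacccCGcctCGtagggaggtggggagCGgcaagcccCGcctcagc
PTPRN downstream: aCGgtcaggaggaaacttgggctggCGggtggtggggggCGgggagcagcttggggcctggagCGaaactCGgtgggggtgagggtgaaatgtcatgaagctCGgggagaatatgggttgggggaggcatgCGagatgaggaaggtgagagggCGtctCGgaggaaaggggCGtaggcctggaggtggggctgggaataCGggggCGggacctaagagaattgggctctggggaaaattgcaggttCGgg
ICA1: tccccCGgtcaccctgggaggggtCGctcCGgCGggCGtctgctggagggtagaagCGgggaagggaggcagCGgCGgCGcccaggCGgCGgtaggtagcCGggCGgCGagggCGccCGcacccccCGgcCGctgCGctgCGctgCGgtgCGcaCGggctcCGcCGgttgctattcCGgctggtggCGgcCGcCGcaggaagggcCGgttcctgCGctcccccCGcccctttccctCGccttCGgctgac
The ICA1 run held 34 CpG dinucleotides, both GAD2 runs 24 and 29, the GAD1 run 23 and the PTPRN runs 18 and 13, against a median of 11 (quartiles 3 to 23) over 35116 RefSeq promoters. The 3 runs of GAD1 and GAD2 lay wholly (100%) inside an H3K4me3 region. Of the canonical PTPRN run 62.8% was covered, of the downstream one 15.6%, and of the ICA1 run, the richest in CpG, 0%.

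Short motifs were searched on both strands of the 250 bases before each of these starts. TATAAA, the core of the TATA box, occurred 2 times at GAD1 and at none of the other 5 promoters printed, and 10.7% of the 35116 promoters held it. GGGCGG, the core of the site bound by Sp1, occurred at ICA1 (2), at the downstream PTPRN start (2) and at each GAD2 start (1), and 42.6% of all promoters held it. CCAAT was present at the upstream GAD2 start and the downstream PTPRN start (11240 of the 35116 promoters). TGACG, a part of the cAMP response element, occurred 2 times at the canonical PTPRN start and 1 time at the upstream GAD2 start (21.2% of all promoters).

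The upstream GAD2 promoter also held CAGCACC followed after 2 bases by GGACAG, starting 79 bases before the start. The string can be read as cagcaccCGggacag in its printed sequence. These are both parts of the element recognised by REST, a repressor of neuronal and endocrine genes outside those lineages. The canonical PTPRN promoter held CAGCACC alone. By themselves CAGCACC was found in 6.16% and GGACAG in 17.2% of the 35116 promoters, and both in this order on one strand, within 20 bases, in 34 of them (0.0968%). A match of letters is a description of the sequence, and binding was not measured.

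GAD1 and GAD2, the paralogous enzymes that turn glutamate into GABA, both carried H3K4me3 across their start. GAD2 (ENSG00000136750.13), which encodes the isoform most often recognised by patients' autoantibodies, had its main region at chr10:26213701-26223622 (hg38), 9921 bp wide, with a mean of 279.954 normalized counts and 28.2 per kb. It ran from 3.07 kb before to 6.85 kb after the canonical start, over exons 1 to 4 of 16, and all 5 annotated start sites lay inside it. By mean it ranked 123 of 15085 promoters, and only 0.537% of promoters had a region at least as wide.

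The main region of GAD1 (ENSG00000128683.14) lay at chr2:170815180-170819493 and was 4313 bp wide, with a mean of 87.8 and 20.3 per kb. It spanned 1.71 kb before to 2.61 kb after the canonical start, over exons 1 and 2 of 17. A weak second region farther upstream, chr2:170813015-170813851, had a mean of 3.60 and held 1 start site. The GAD1 main region had 0.314 times the mean of the GAD2 main region but 0.721 times its level per kb, so most of the distance between the paralogs lay in the width. Of the 17 start sites of GAD1, 11 were inside a region, and the 6 others lay 2.23 to 12.1 kb from the nearest one.

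PTPRN and PTPRN2 encode the receptor-type tyrosine phosphatase-like proteins of dense-core granules, known as autoantigens under the names islet antigen 2 and phogrin. Per kb they lay farther apart than GAD1 and GAD2 did. The main region of PTPRN2 (ENSG00000155093.20), chr7:158582889-158586927, was 4038 bp wide with a mean of 95.3 and 23.6 per kb, at percentile 65.7 of all promoters per kb. The main region of PTPRN (ENSG00000054356.14), chr2:219306153-219309009, was 2856 bp wide with a mean of 21.3 and 7.46 per kb, at percentile 8.85. A second PTPRN region on the other side of the start, chr2:219309495-219310834, had a mean of 8.70 and 6.50 per kb. PTPRN was the lowest of the 6 genes on both scales, although its main region was wider than the median promoter (percentile 59.1 of width).

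SLC30A8 (ENSG00000164756.13), the zinc transporter of insulin granules, had the strongest and widest of the 6 main regions, at chr8:117132741-117152197. It was 19456 bp wide, with a mean of 473.4, and ranked 11 of 15085 promoters by mean. In all, 6 genes (0.0398%) had a main region at least this wide, SLC30A8 included, and 3 distinct regions were wider, at MEIS2, PAX6 and the neighbours PRELID3B and ATP5F1E. PAX6 encodes a transcription factor of islet and eye development. Per kb the SLC30A8 region stood at 24.3, percentile 67.6, so its high count came with its width. It began 2.25 kb before the canonical start and ended 17.2 kb after it, over exons 1 and 2 of 8.

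ICA1 (ENSG00000003147.19), a BAR-domain protein that binds the small GTPase RAB2, had the narrowest main region of the 6, chr7:8260232-8261826, 1594 bp wide. Its mean was 45.4, near the median of all promoters (percentile 47.1). Per kb it was the highest of the 6 at 28.5 (percentile 79.3), next to GAD2 at 28.2. A second region on the other side of the start, chr7:8262440-8263663, was nearly as strong, with a mean of 33.9 and 27.7 per kb.

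**Figure D1:**
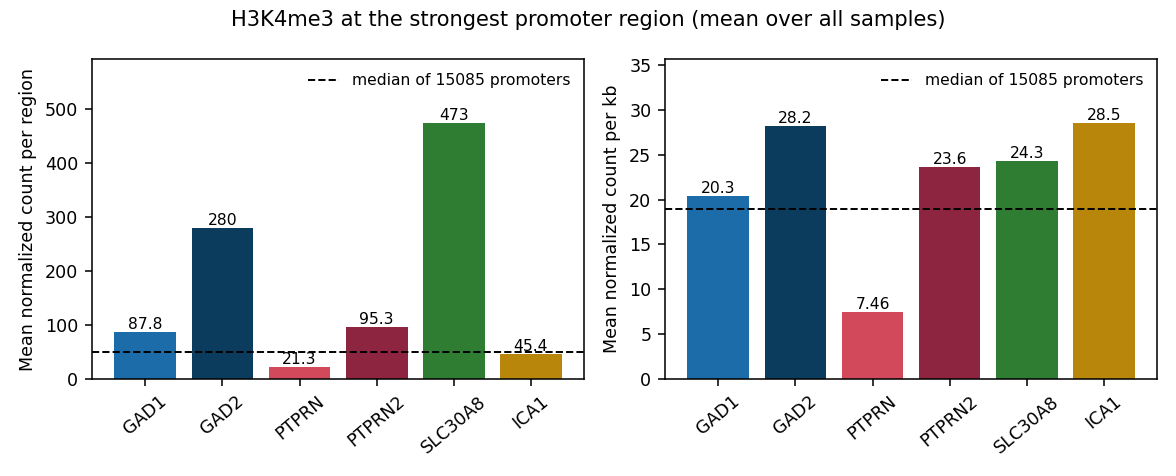
Mean normalized H3K4me3 count of the main region of each gene (left) and the same divided by the region width in kb (right), as the authors' mean over the samples of both states, which has no error. The dashed lines are the medians of 15085 promoters, 49.2 and 19.0. The counts run from 21.3 at PTPRN to 473 at SLC30A8, while the levels per kb of all but PTPRN lie between 20.3 and 28.5.

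Over the 6 genes the mean varied 22.2-fold and the level per kb 3.82-fold. Without PTPRN, the other 5 genes lay within 1.40-fold of each other per kb. Of the 6, 4 were above the median promoter by mean, 5 per kb and 5 by width. The order per kb was ICA1, GAD2, SLC30A8, PTPRN2, GAD1 and PTPRN, and without a spread over samples it cannot be said which neighbours in it differ. By width the order was SLC30A8, GAD2, GAD1, PTPRN2, PTPRN and ICA1. Across all 15085 promoters the mean rose with width (Spearman's rho = 0.875), and so did the level per kb (rho = 0.479). These promoters are not independent, since 3959 genes share a main region with another gene. No other protein-coding gene shared a region with any of the 6.

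**Figure D2:**
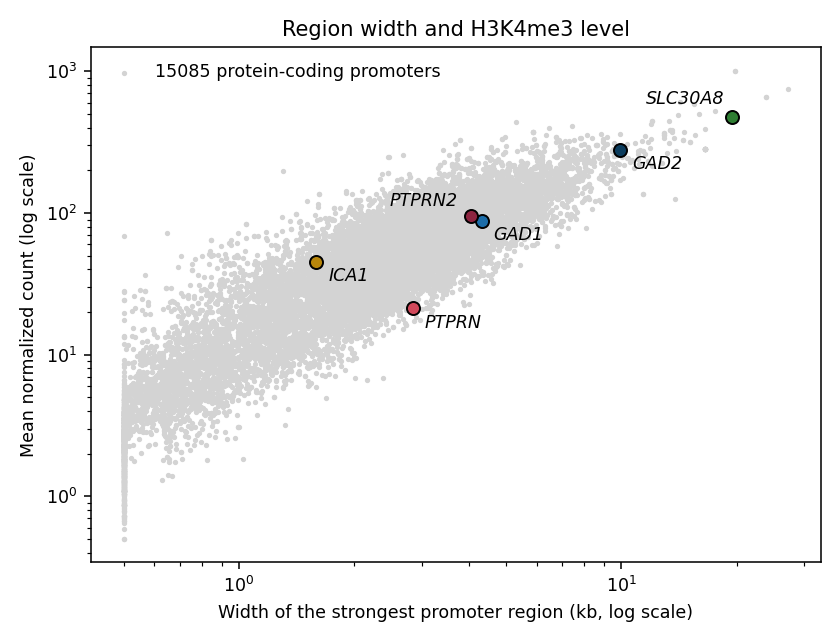
Width of the main region in kb against its mean normalized H3K4me3 count, both on log scales, for 15085 protein-coding promoters (grey) and the 6 genes (coloured). SLC30A8 (19456 bp) and GAD2 (9921 bp) sit at the wide and strong end, while PTPRN (2856 bp) lies at the lower edge of promoters of its width.

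The base composition of the main regions differed widely. The SLC30A8 region had 36.2% GC, at percentile 1.27 of main regions, and a CpG ratio (observed over expected) of 0.160. The GAD1 region had 59.4% GC and a CpG ratio of 0.759, and the GAD2 region 48.5% and 0.604. PTPRN and PTPRN2 had 49.7% and 51.2% GC with low CpG ratios of 0.278 and 0.359, and ICA1 had 45.8% and 0.658. The medians over 15085 promoters were 51.3% GC and 0.587. Across promoters the mean fell with GC content (rho = −0.451), the level per kb fell with it (rho = −0.340), and the mean had nearly no relation to the CpG ratio (rho = 0.0144). The part of GC content in the levels of the 6 genes was not tested.

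The canonical start site lay inside an H3K4me3 region for 3 of the 6 genes, GAD1, GAD2 and SLC30A8, and outside for 3, PTPRN, PTPRN2 and ICA1. Over all 15085 genes it lay inside for 70.4%. At PTPRN the start fell between both regions, in a gap of 486 bp with 71.3% GC. At ICA1 it fell in a gap of 614 bp with 76.3% GC. Such a start between 2 regions was found for 1884 genes (12.5%), with a median gap of 730 bp. At PTPRN2 the only region near the start began 896 bp downstream of it, inside the gene and over no exon of the canonical transcript.

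The starts of the 6 genes differed in GC content. In the 300 bases around the canonical start the GC content was 85.7% at PTPRN2, 79.1% at ICA1, 72.1% at PTPRN, 70.4% at GAD1, 69.1% at GAD2 and 39.9% at SLC30A8, against a median of 68.4% (quartiles 61.5 to 74.4). The 3 genes with a start outside a region thus had the highest values of the 6, though PTPRN lay within the quartiles of all genes. Over all genes, starts inside a region had a median of 67.1% GC and those between 2 regions 77.4%. The share of starts inside a region was highest at intermediate GC content. It was 38.3% for the 209 genes with under 40% GC at the start, among them SLC30A8, 51.3% at 40 to 50%, 77.4% at 50 to 60% and 86.8% at 60 to 70%, the range of GAD2. Among the 5462 genes with 70 to 80% GC at the start, 65.5% of starts were inside a region and 20.7% between 2 regions. Among the 1089 genes with at least 80% GC, 18.7% were inside and 50.0% between. Whether reads or marked nucleosomes were lacking in these GC-rich gaps was not tested.

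**Figure D3:**
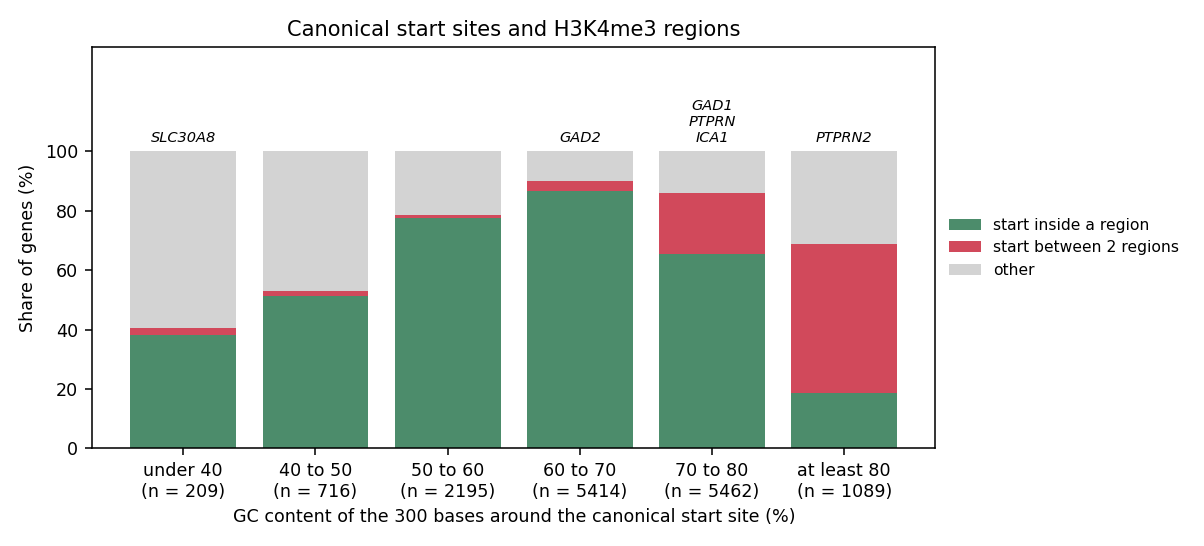
Share of 15085 genes whose canonical start site lay inside an H3K4me3 region (green), between 2 regions (red) or elsewhere (grey), by the GC content of the 300 bases around the start. The names above the bars place the 6 genes. The share inside a region rises from 38.3% under 40% GC to 86.8% at 60 to 70% and is 18.7% at 80% GC or more, while the share between 2 regions is 3.07% at 60 to 70% GC and 50.0% at 80% GC or more.

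The genes also have annotated starts away from the main region. At ICA1, 12 of 17 start sites were within 2 kb of a region but only 4 were inside one, all in the upstream region. At PTPRN, 9 of 19 start sites were inside a region, 6 in the main one and 3 in the upstream one. None of the 5 starts of PTPRN2 was inside a region, and the start farthest downstream, 966 kb into the gene, was 7.52 kb from the nearest. SLC30A8 has a group of 4 starts 184.04 to 184.7 kb before the canonical one. The nearest region to them was 10.9 kb away. Its mean of 43.6 is also that of the main region of another gene, AARD. The other 5 starts of SLC30A8 were all inside the main region of SLC30A8.

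**Figure D4:**
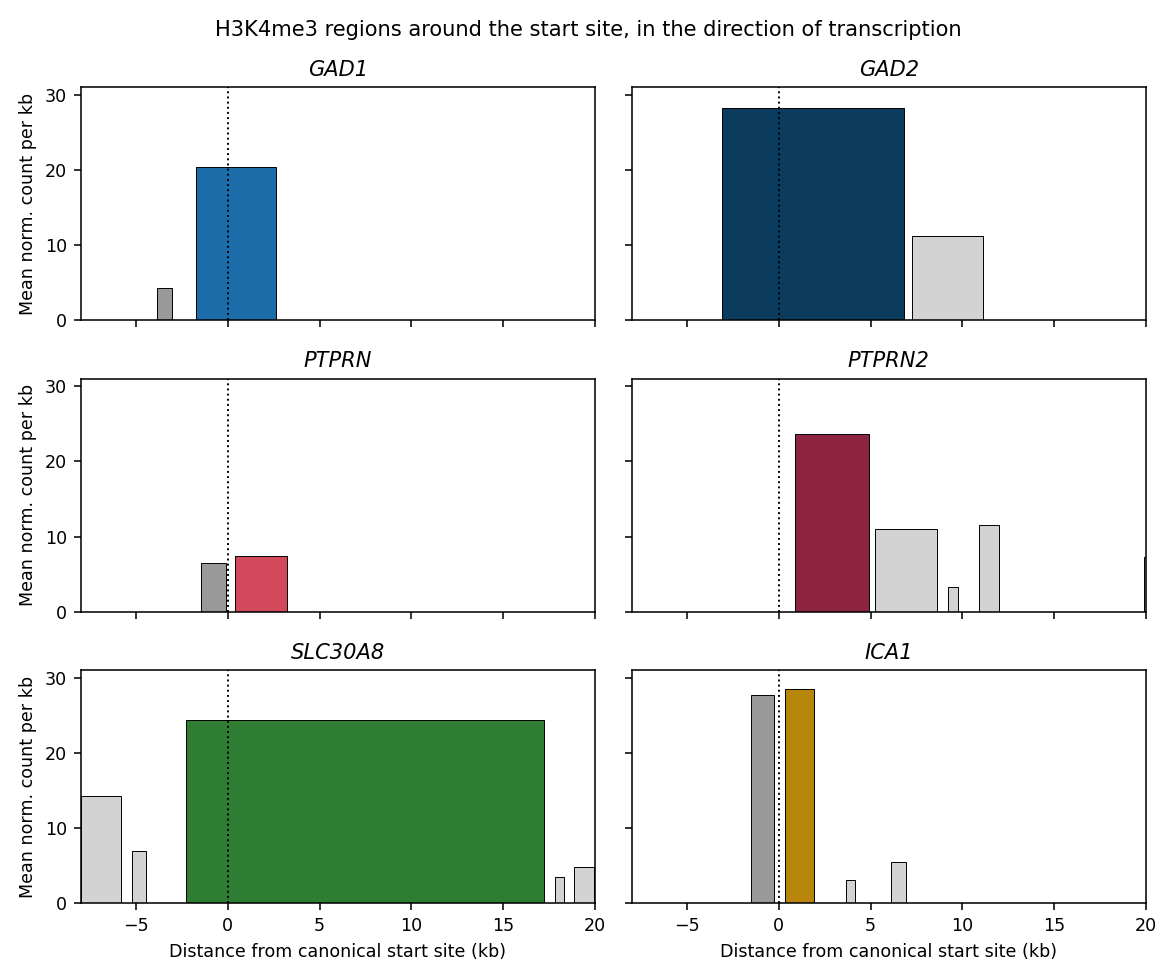
H3K4me3 regions from 8 kb before to 20 kb after the canonical start site (dotted line) of each gene, drawn in the direction of transcription, with the mean normalized count per kb as height and the width to scale. The main region is coloured, other regions near a start are dark grey and regions of the gene body light grey. The start of PTPRN and of ICA1 lies in a gap between 2 regions, and that of PTPRN2 lies before its region.

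Within the gene bodies, away from the start sites of the gene itself, the genes differed strongly in the number of regions. Regions at starts of other genes lying in a body were not excluded, here or in the values over all genes below. PTPRN had 0, GAD1 1, GAD2 5, ICA1 5, SLC30A8 19 and PTPRN2 68. PTPRN2 is 1049 kb long (percentile 99.6 of gene length), and its body regions had means from 0.671 to 116.6 with a median of 5.05, of which 20 reached at least 10. Together they summed to 770 normalized counts, and the main region held 11.0% of the signal over the gene. The strongest, chr7:158024218-158030422, lay 557 kb downstream of the canonical start, within 2 kb of a start of the long non-coding RNA gene ENSG00000231980. Its mean of 116.6 exceeded that of the PTPRN2 main region 1.22-fold, but per kb it stood at 18.8 against 23.6. Of all 15085 genes, 7.78% had a stronger region in the body than at the start, and among the 3332 genes of at least 100 kb 16.2% did.

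At SLC30A8 the 19 other regions had means from 0.689 to 55.0 and a median of 5.27. The strongest, chr8:117043771-117047090, lay 87.9 to 91.2 kb before the canonical start, between it and the upstream group of starts. GAD2 had regions of 43.3 and 31.7 in its body, the first of them, chr10:26224050-26227901, beginning 428 bp after the end of the main region. The body regions of ICA1 had means from 1.06 to 17.4, and the single one of GAD1 stood at 2.55. The main region held 93.5% of the signal over the gene at GAD1, 73.7% at GAD2, 71.0% at PTPRN, 63.8% at SLC30A8 and 40.8% at ICA1.

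Long genes carry more regions, and the number was therefore set against gene length. There were 8.39 body regions per 100 kb at SLC30A8, 6.48 at PTPRN2 and 3.34 at ICA1, the 3 genes longer than 100 kb. The median over the 3332 genes of at least this length was 2.62 (quartiles 1.43 to 4.46), which placed SLC30A8 at percentile 94.1, PTPRN2 at 88.4 and ICA1 at 60.9.

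The genes were then placed within their families and pathways. Of 29 genes for GABA synthesis, transport, breakdown and reception, 18 had a main region, with a median of 18.0 per kb, and 9 of the 18 were above the median promoter. GAD2 ranked 1 by mean and 4 per kb, and GAD1 4 and 8. The highest per kb was ALDH5A1 at 39.0, an enzyme of GABA breakdown, followed by the receptor subunits GABBR1 (35.0) and GABRB1 (32.7), and the lowest was the receptor subunit GABRA5 at 2.17. SLC32A1, the transporter that loads GABA into synaptic vesicles, stood at 5.05, and ABAT, which degrades GABA, at 25.1. No region near a start was found for 11 genes, the plasma membrane transporters SLC6A11 and SLC6A13 and the receptor subunits GABRA3, GABRA6, GABRB2, GABRD, GABRE, GABRP, GABRQ, GABRR1 and GABRR2.

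Of 20 receptor-type tyrosine phosphatases, 17 had a region (median 14.3 per kb, 7 above the median promoter). PTPRN2 ranked 4 per kb and 3 by mean, and PTPRN 15 and 12. PTPRA was the highest per kb at 27.9 and PTPRO the lowest at 5.33. PTPRC, PTPRH and PTPRS had none. Of 10 SLC30 zinc exporters, 9 had a region (median 30.3 per kb, 6 above the median promoter), and SLC30A2 had none. SLC30A8 ranked 1 of 9 by mean and by width but 6 per kb. SLC30A10, an exporter that also carries manganese, was the highest per kb at 56.2, followed by SLC30A6 (49.2) and SLC30A7 (38.7), which act in the secretory pathway, and SLC30A3, the zinc transporter of synaptic vesicles, was the lowest at 7.53.

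All 6 genes of the group of ICA1 had a region (median 26.2 per kb, 5 above the median promoter). ICA1 was second per kb at 28.5, after the BAR-domain protein ARFIP1 at 34.5. Its paralog ICA1L stood at 26.6, the BAR-domain proteins ARFIP2 and PICK1 at 25.8 and 25.5, and RAB2A, to which ICA1 binds, was the lowest at 18.4. The region of ICA1L had a mean of 85.2, against 45.4 at ICA1.

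All 12 other genes reported as islet autoantigens had a region, with a median of 20.8 per kb, and 7 were above the median promoter. The chaperone HSPD1 was the highest at 28.5 per kb and IAPP, the amyloid peptide secreted with insulin, the lowest at 7.56. INS itself stood at 14.0 per kb (mean 24.7), G6PC2 at 8.81, TSPAN7 at 11.1, CHGA at 25.1 (mean 169), P4HB at 25.7 and UCN3 at 25.7. PTPRN at 7.46 was thus lower than each of these 12 genes, and the other 5 lay among them. With 6 and 12 genes and no error on any value, the 2 sets were not tested against each other.

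**Figure D5:**
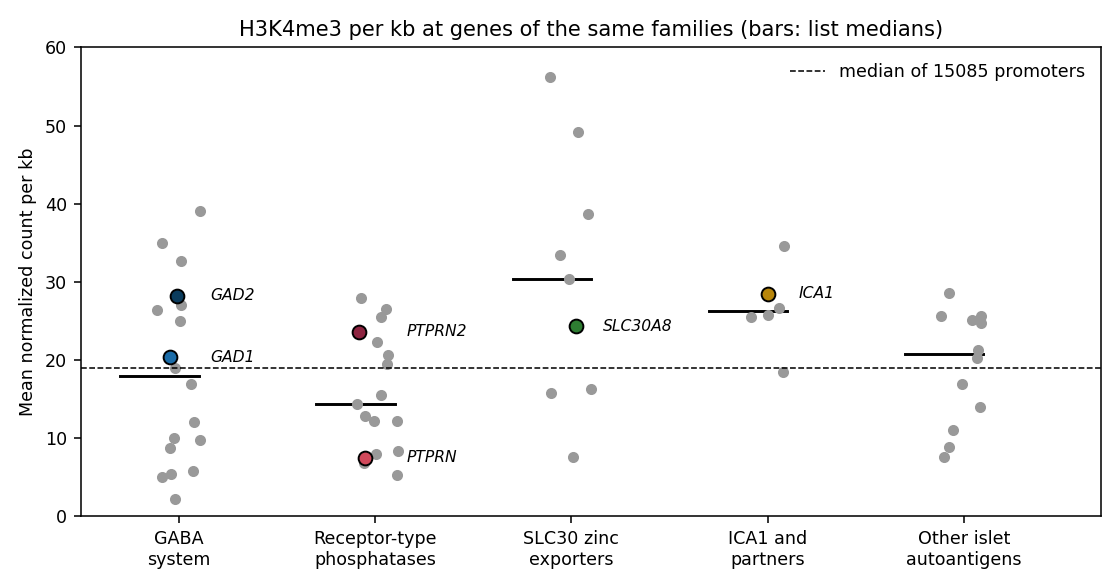
Mean normalized H3K4me3 count per kb of the main region for genes of the GABA system (18 with a region), receptor-type tyrosine phosphatases (17), SLC30 zinc exporters (9), ICA1 with its paralog and partners (6) and other islet autoantigens (12), with the 6 genes coloured. Short bars are medians of each list and the dashed line is the median promoter at 19.0. PTPRN lies low among the phosphatases, and SLC30A8 lies below the median of the zinc exporters.

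The labelled cell type was checked on marker genes. Of 11 genes listed as beta cell markers, 10 had a region, with a median of 23.9 per kb. By mean, 6 of the 10 were above the median promoter. PAX6, ISL1 and NEUROD1 in this list are shared with other islet endocrine cells and do not set beta cells apart. MAFA had no region near a start, and whether reads or marked nucleosomes were lacking there was not tested. The paper reported raised MAFA mRNA in the senescent cells. The transcription factors with a region had means of 664.6 at PAX6, 588.2 at ISL1, 386.5 at NEUROD1, 260.5 at PDX1 and 172.9 at NKX6-1. The genes of secretion and glucose handling were lower, with means of 74.9 at UCN3, 44.1 at SLC2A2, 24.7 at INS, 18.4 at G6PC2 and 6.94 at IAPP. Per kb, ISL1 was the highest of the list at 38.1 and IAPP the lowest at 7.56.

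Markers of other cell types also carried the mark in part. All 4 alpha cell markers had a region (median 15.8 per kb), from 6.99 per kb at GCG to 31.5 at IRX2, with TTR at 20.6 (mean 132.6). Of 4 delta and PP cell markers, 3 had a region (median 12.2 per kb), from 11.0 at SST to 24.7 at LEPR, and PPY had none. All 3 duct markers had a region (median 9.86 per kb), from 7.09 at CFTR to 11.0 at SOX9. Of 5 stellate and endothelial markers, 3 had a region (median 6.28 per kb), from 3.43 at COL1A2 to 15.3 at PECAM1, and PDGFRB and CDH5 had none. Of 4 acinar markers, 3 had a region (median 2.88 per kb), from 2.24 at PRSS1 to 6.59 at CPA1, and CELA3A had none. The marker lists thus do not separate fully, since IRX2, TTR and LEPR lay above the median promoter and 4 beta cell markers below it. None of the 3 immune cell markers (PTPRC, CD3E and HLA-DRA) had a region near a start site. The mark shows neither the amount of RNA nor of protein, which were not analysed here.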

How the data were processed

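H3K4me3 was profiled by MINT-ChIP, in which barcoded chromatin samples are pooled before immunoprecipitation. The authors used Bowtie2 and samtools for alignment to hg38, HOMER for peaks and DESeq2 for normalization and comparison. Versions, peak merging, read counting and duplicate removal are not given in the sources used here. The deposited signal of a region is the authors' mean, over samples, of DESeq2-normalized counts. The other deposited columns hold the authors' comparison of senescent with non-senescent cells (fold change, standard error, statistic, p-values) and were not used. Depth per sample is unknown.

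GENCODE release 44 gave the start sites of every transcript of the protein-coding genes. A gene was given every region within 2 kb of a start site, and the region with the highest mean was its main region. A percentile is the share of the 15085 genes with a region that lie below a value, ties counted in part. GC content and CpG counts came from hg38, and promoter sequences from RefSeq for 4 of the 6 genes (not PTPRN2 and SLC30A8). The linking step was tested on simulated regions. The 6 genes and all lists were chosen with earlier results of these data known. Of the lists, 3 genes are not reported here. All 6 genes, their regions near start sites, and the highest and lowest genes per kb of each list with a region are named, and gene body regions are given by number, range and strongest. Other named genes were chosen after their values were seen. Python 3.11.15, numpy 2.4.6, pandas 2.3.3, pysam 0.24.0, matplotlib 3.10.9 and samtools 1.23.1 were used.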

Additional observations from a re-analysis of the deposited data

How the results depend on the processing

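Of 93 values computed under alternative settings, 74 stayed within 5 percentile points or within 1.5 times of the value given above, and 19 moved further. Windows of 1 or 5 kb and the canonical start site alone moved no value that far. With the region nearest to the canonical start site, PTPRN fell to a mean of 8.70 (percentile 17.5) and to 0.0913 of PTPRN2, instead of 0.224. With all regions of the window summed, ICA1 reached 79.3 (percentile 63.7) and PTPRN2 lay at percentile 72.3. Per kb of width, the percentiles were 54.9 for GAD1, 78.7 for GAD2, 8.85 for PTPRN, 65.7 for PTPRN2, 67.6 for SLC30A8 and 79.3 for ICA1, and GAD1 was at 0.721 of GAD2, instead of 0.314. With genes without a region counted at 0, GAD1 lay at percentile 80.8, PTPRN at 43.5, PTPRN2 at 83.6 and ICA1 at 60.2. ICA1, below the median promoter by mean (percentile 47.1), was thus above it with regions summed, per kb and with absent genes at 0, which brings the number of the 6 genes above the median from 4 to 5. Among promoters with a mean of at least 10, PTPRN lay at percentile 13.0 and ICA1 at 38.7.

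No paired analysis was possible because the mean column holds no value per sample. No sample was left out for the same reason, and no value has an error. The counting depth behind a mean is unknown, so weak regions, such as those with means near the lowest in the table, are the least certain. Regions on the 2 sides of a start site depend on how the authors merged peaks, which is not given in the sources used here.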
